A study of Homo sapiens with 6 samples.

Results

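The replication-dependent histone genes were examined in the cultured line MDA-MB-231, which derives from a breast cancer without hormone receptors. The vehicle group, DMSO, held 3 samples, and the treated group held 3 samples given YW3-56 at 10 µM for 8 h. The labels state no separate time for the vehicle. YW3-56 is known as an inhibitor of peptidylarginine deiminases, the enzymes that turn arginine into citrulline in histones and other proteins. Both groups come from the same line, and the labels name no genetic change in either. Genes were taken as histone genes when the platform annotation gave a probe set 1 symbol, and that symbol was H1-1 to H1-6 or began with H2AC, H2BC, H3C or H4C. This gave 58 of 18417 genes tested, with 6 genes for H1, 14 for H2A, 17 for H2B, 8 for H3 and 13 for H4. Each was measured by 1 probe set, and no gene was left out for a low value. H2BC19P is annotated as a pseudogene, and H1-10, a linker histone outside the clusters, was not counted although its symbol starts alike.

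Histones package DNA. Pairs of H2A, H2B, H3 and H4 molecules form the nucleosome core, and H1 binds the linker DNA between cores. A dividing cell makes most of its histone protein in S phase from clustered, intronless genes whose mRNA ends in a stem-loop rather than a poly(A) tail. The stem-loop is bound by SLBP, cut with the help of the U7 small nuclear RNA, and drives rapid decay when DNA synthesis stops. The cyclin E and CDK2 target NPAT activates these genes in a nuclear structure named the histone locus body. Many genes encode the same or nearly the same protein, and their coding sequences are close copies. The labels' protocols name total RNA and a whole-transcript terminal labelling kit, with no word on how cDNA was primed.

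In cells treated with YW3-56 the histone genes were mostly lower. At a limma adjusted p under 0.05, 27 of the 58 were lower and 0 were higher, against 11.5% of all genes called lower and 9.84% called higher. Of the 58 differences, 56 lay below 0, against 11432 of the 18417 differences over all genes tested. The median log2 fold change was -0.35, against -0.05 over all genes tested. All 3 treated values lay below all 3 DMSO values for 34 members, against 21.4% of all genes, and above them for 0 members. At least 2-fold falls were called for 5 members (H2AC15, H3C12, H2AC4, H2BC14 and H4C2), against 0.527% of all genes. The 0 rises held in every alternative except when the replicate number entered as a block or arrays were weighted, and in each of these H2BC12 was called higher. At an unadjusted p under 0.05 limma gave 35 lower and 0 higher members, against 3327 and 2490 of all 18417 genes. At an adjusted p under 0.05, the test without shared variance also called 0 members higher, against 1299 of all genes.

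H4C14 and H4C15 carried identical values on all 6 arrays, so the 27 falls rest on 26 separate measurements among 57. These are bulk values, in which fewer cells in S phase and less histone mRNA per cell cannot be told apart. The arrays are scaled to 1 common distribution, so a shift shared by all transcripts would not show. The labels call the replicates biological without saying how the cultures were started, and the p-values measure the spread between these arrays.

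The promoter sequences of 52 members were matched in RefSeq (GRCh38.p14), and 7 of them are printed because they show the elements that histone families share. Each is the 150 bases before the annotated start, 5′ to 3′ on the gene's strand. Capitals mark the CCAAT box, the TATA box as TATAAA, the octamer as ATTTGCAT and the H4 element as GGTCCG, each searched on both strands. H2AC15, H2AC4, H2BC14, H4C2 and H1-2 fell, and H2BC12 and H4C8 are the members with a difference above 0.
H2AC15, chr6:27838376-27838525, minus strand: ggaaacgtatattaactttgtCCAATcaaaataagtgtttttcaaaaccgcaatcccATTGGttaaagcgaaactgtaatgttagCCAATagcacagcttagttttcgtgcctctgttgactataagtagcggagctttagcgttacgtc
H2AC4, chr6:26033619-26033768, minus strand: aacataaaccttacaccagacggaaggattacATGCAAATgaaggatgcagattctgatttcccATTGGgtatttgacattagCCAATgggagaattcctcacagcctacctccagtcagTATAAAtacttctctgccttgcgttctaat
H2BC14, chr6:27814872-27815021, plus strand: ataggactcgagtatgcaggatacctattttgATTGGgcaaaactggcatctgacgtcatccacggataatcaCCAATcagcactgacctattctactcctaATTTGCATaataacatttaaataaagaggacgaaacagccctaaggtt
H4C2, chr6:26027284-26027433, minus strand: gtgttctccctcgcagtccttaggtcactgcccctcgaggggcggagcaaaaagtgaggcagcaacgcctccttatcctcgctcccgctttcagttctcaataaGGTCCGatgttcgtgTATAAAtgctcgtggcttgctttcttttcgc
H1-2, chr6:26056471-26056620, minus strand: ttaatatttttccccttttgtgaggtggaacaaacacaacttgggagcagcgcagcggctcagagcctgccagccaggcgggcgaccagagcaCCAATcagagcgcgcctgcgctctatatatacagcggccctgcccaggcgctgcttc
H2BC12, chr6:27146859-27147008, minus strand: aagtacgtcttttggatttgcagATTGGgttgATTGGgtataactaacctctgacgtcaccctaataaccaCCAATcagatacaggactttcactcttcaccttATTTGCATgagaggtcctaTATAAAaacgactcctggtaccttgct
H4C8, chr6:26285535-26285684, minus strand: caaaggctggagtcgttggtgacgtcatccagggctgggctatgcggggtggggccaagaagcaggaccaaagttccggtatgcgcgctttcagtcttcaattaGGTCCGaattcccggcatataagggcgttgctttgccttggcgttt

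Over the 250 bases before the start, CCAAT was found in 84.6% of the member promoters, against 33.0% of 27305 promoters in all. The octamer, a site known to bind OCT1, was found in 10 of 13 H2A and 13 of 16 H2B promoters and in 0 of the H1, H3 and H4 promoters, against 1.66% of all. GGTCCG, the core of the H4 element bound by HINFP, was found in 10 of 11 H4 promoters, against 9.33% of all, and TATAAA in 34 of 52 members, against 11.1%. The shares differed between families by more than between called and uncalled members. Members called lower held CCAAT in 20 of 23 promoters and members not called in 24 of 29. The median log2 fold change was -0.38 with the octamer and -0.32 without it, and -0.35 with GGTCCG and -0.34 without it. The H2A and H2B genes of a head-to-head pair share 1 stretch of DNA, so their promoters are not separate counts. A match is a description of the letters and not evidence of binding.

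**Figure D1:**
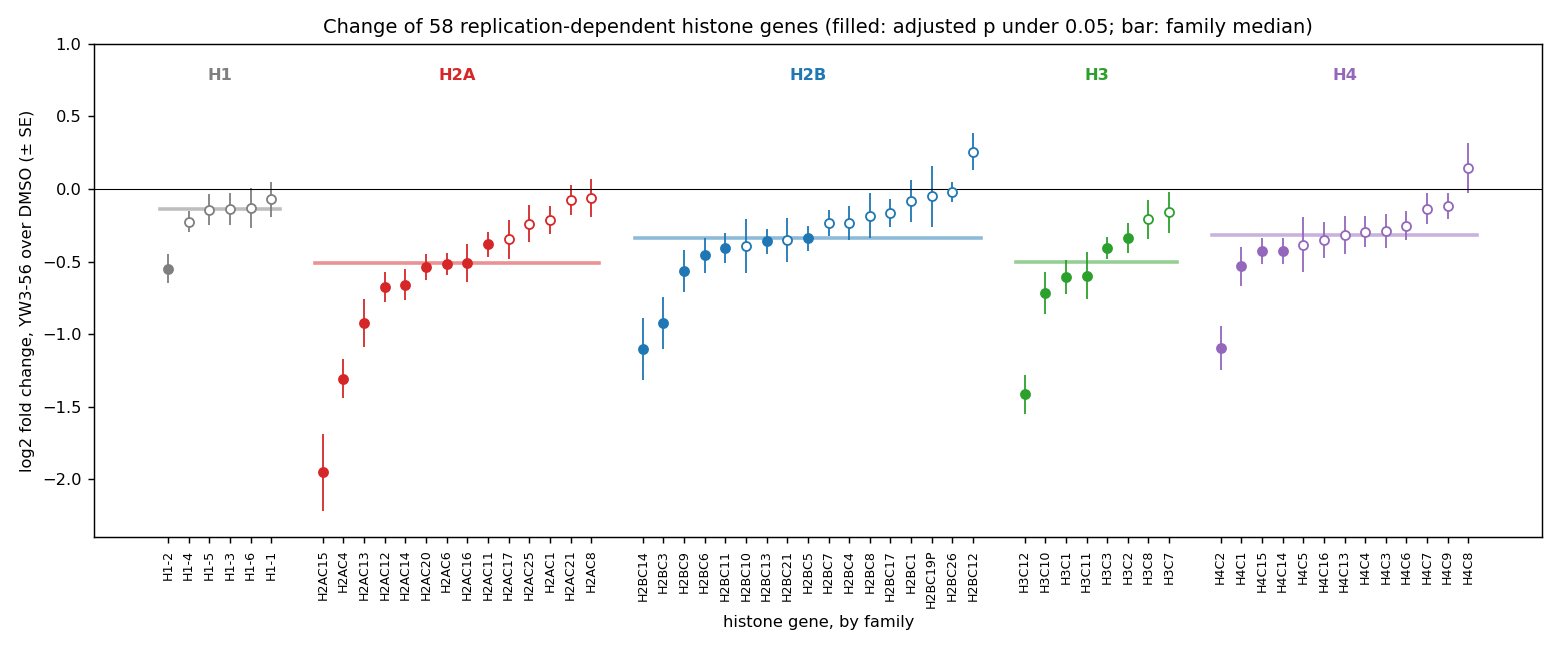
Log2 fold change of each of the 58 histone genes (vertical axis, YW3-56 over DMSO; bars are SE, 3 arrays a group), grouped by family and sorted. Filled points passed an adjusted p of 0.05 and thick lines mark family medians, from -0.14 for H1 to -0.51 for H2A, and H2BC12 and H4C8 lie above 0.

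The core histone families and H1 differed in how many genes were called. In H2A 9 of 14 genes were lower, in H3 6 of 8, in H2B 7 of 17, in H4 4 of 13 and in H1 1 of 6, against 11.5% of all genes. The median log2 fold changes were -0.51 for H2A, -0.50 for H3, -0.34 for H2B, -0.32 for H4 and -0.14 for H1. These are descriptions, and the difference between families was not tested. The H2B count rested on single arrays, with 4 falls without DMSO replicate 2 or without DMSO replicate 3, 3 without YW3-56 replicate 1 and 2 without YW3-56 replicate 3. The H4 count was 8 without DMSO replicate 1. The H1 median was -0.24 without DMSO replicate 1 and -0.09 without DMSO replicate 2 or DMSO replicate 3. It was -0.39 with dim genes left out, when only H1-2 and H1-4 remained.

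H2A forms the dimer with H2B and its tail holds an arginine that deiminases can modify. The largest fall of any histone gene was that of H2AC15 (older name HIST1H2AK, probe set 8124524). Its DMSO values were 10.76, 11.35 and 11.79 on the log2 scale, and its YW3-56 values were 8.93, 9.62 and 9.49. The treated values all lay more than 1 log2 unit below the lowest DMSO value, and the gene was 3.87-fold lower (log2 fold change -1.95 ± 0.26 SE, limma adjusted p = 0.0016). A second probe set (8117600), which the annotation gives to both H2AC15 and H2BC15, changed by only -0.25 ± 0.07.

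H2AC4 read 8.87, 9.05 and 9.0 in DMSO and 7.35, 7.84 and 7.81 in YW3-56. It was 2.48-fold lower (-1.31 ± 0.14, adjusted p = 5.5e-04 by limma), with treated values that lay far outside the narrow range of the vehicle. H2AC13 read 9.46, 9.42 and 10.00 in DMSO and 8.59, 8.91 and 8.61 in YW3-56, and was 1.9-fold lower (-0.92 ± 0.16, limma adjusted p = 0.0055). H2AC12 read 7.62, 7.58 and 7.34 against 6.70, 6.97 and 6.85, and was 1.60-fold lower (-0.68 ± 0.11, limma adjusted p = 0.0030). For both genes the groups did not overlap. A test without variance shared between genes ended the call of H2AC13 (adjusted p = 0.0686) and kept those of H2AC15, H2AC4 and H2AC12.

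The other H2A genes called lower were H2AC14, H2AC20, H2AC6, H2AC16 and H2AC11, with log2 fold changes from -0.66 to -0.38. H2AC14 was dim, with a mean over 6 arrays at the 2.80 percentile of all genes, so its fold is uncertain. H2AC16 lost its call without DMSO replicate 2 (adjusted p = 0.0854), DMSO replicate 3 (0.0597), YW3-56 replicate 1 (0.0849) or YW3-56 replicate 3 (0.0725). H2AC11 lost it without YW3-56 replicate 1 (0.0504) or 3 (0.0587). H2AC17, H2AC25, H2AC1, H2AC21 and H2AC8 were not called, with differences from -0.35 to -0.06. H2AC1 is a testis gene, and H2AC8 was close to the bottom of the scale, at 4.06 in DMSO and 4.0 in YW3-56. H2AC21 was bright in both groups, at 12.56 and 12.49, while its neighbour H2AC20 changed by -0.54 ± 0.09. A bright probe set that the annotation gives to H2AC18, H2AC19, H2AC20 and H2AC21 changed by -0.48 ± 0.11. It was called lower in a fit over all probe sets, so the 2 neighbours are not cleanly separated.

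H2B is the partner of H2A in the dimer. H2BC14 was the brightest H2B probe set that fell, reading 13.63, 13.77 and 13.61 in DMSO and 12.02, 12.96 and 12.72 in YW3-56. The 3 vehicle arrays were close together, the treated arrays were spread, and the gene was 2.15-fold lower (-1.10 ± 0.21, limma adjusted p = 0.0075). H2BC3 read 9.86, 10.01 and 10.25 in DMSO and 8.71, 9.42 and 9.21 in YW3-56, without overlap (-0.92 ± 0.18, limma adjusted p = 0.0076). In the test without shared variance neither was called, with adjusted p of 0.0864 for H2BC14 and 0.0830 for H2BC3, and no other H2B gene passed it.

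H2BC9 read 9.85, 9.98 and 10.09 in DMSO and 9.11, 9.69 and 9.42 in YW3-56. Its groups did not overlap, by a narrow gap (-0.56 ± 0.14, limma adjusted p = 0.024). H2BC6 read 6.84, 6.99 and 6.94 against 6.28, 6.73 and 6.40, also with a narrow gap (-0.46 ± 0.12, limma adjusted p = 0.027). Both calls were lost without DMSO replicate 2 (adjusted p 0.0783 for H2BC9 and 0.0996 for H2BC6), DMSO replicate 3 (0.0702 and 0.0658), YW3-56 replicate 1 (0.0553 and 0.0866) or YW3-56 replicate 3 (0.0793 and 0.107). H2BC11, H2BC13 and H2BC5 were called at -0.41, -0.36 and -0.34. H2BC11 lost its call without YW3-56 replicate 1 (0.0620), 2 (0.0510) or 3 (0.103) or after a second quantile normalization (0.0677), and H2BC13 without DMSO replicate 3 (0.0608) or YW3-56 replicate 1 (0.0695) or 3 (0.0702). H2BC5 lost it without DMSO replicate 2 (0.0530) or 3 (0.0731) or YW3-56 replicate 2 (0.104) or 3 (0.103).

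H2BC12 was the histone gene with the highest difference. It read 12.25, 11.82 and 12.05 in DMSO and 12.44, 12.11 and 12.35 in YW3-56, so the groups overlapped (0.26 ± 0.13, limma adjusted p = 0.22). Blocked by replicate number, it was called higher (limma adjusted p = 0.0316), and each treated array exceeded the vehicle array of its number. RefSeq gives H2BC12 a span of over 1 kb, unlike most genes here, and likewise H2BC4, H2BC5 and H2BC21. In this set of longer H2B genes H2BC5 was called lower, H2BC21 changed by -0.35 ± 0.15 and H2BC4 by -0.23 ± 0.12. A probe set that the annotation gives to H2BC12, H2BC12L, H2BC17 and H2BC5 went the other way from H2BC12 and was called lower (-0.31 ± 0.08). In the same fit over all probe sets, a bright one for H2BC19P, H2BC20P and H2BC21 was called lower (-0.35 ± 0.08). Another, for H2BC18, H2BP1 and H2BC21, was not called (-0.27 ± 0.08). The remaining H2B genes were not called, with H2BC10 at -0.39, H2BC7 at -0.24, H2BC8 at -0.18, H2BC17 at -0.17, the testis gene H2BC1 at -0.08, H2BC19P at -0.05 and H2BC26 at -0.02. With the replicate block H2BC10 (limma adjusted p = 0.0114) and H2BC7 (0.0413) were called lower too, as they were without DMSO replicate 1 (0.0191 and 0.0281).

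**Figure D2:**
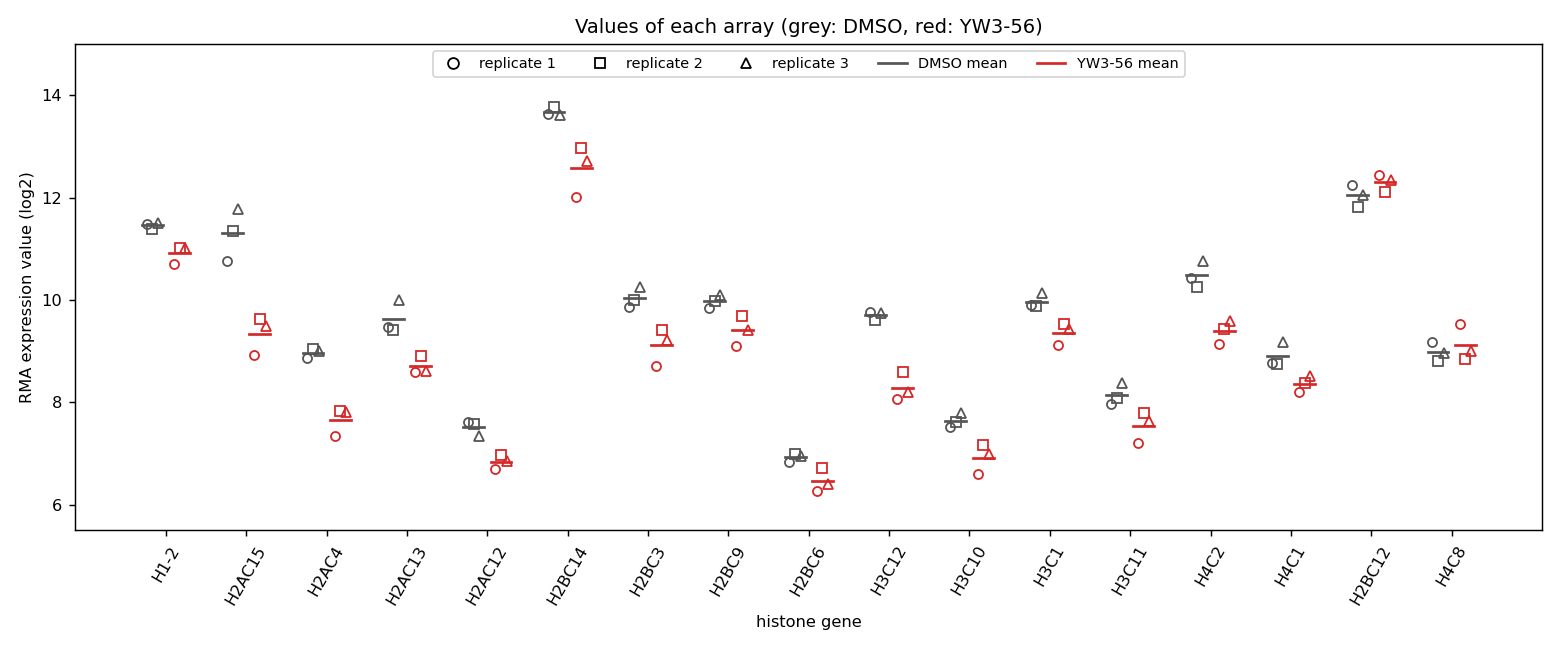
RMA expression value (log2) of each array for 17 histone genes, with DMSO in grey and YW3-56 in red; symbols give the replicate number and lines the group means. The treated values lie below the vehicle values in the 15 genes from H1-2 to H4C1, and the groups overlap in H2BC12 and H4C8.

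H3 pairs with H4 in the tetramer at the centre of the nucleosome, and its tail carries most of the well-known histone marks. All 8 H3 genes here encode the replication-dependent form of the protein. H3C12 (HIST1H3J) read 9.77, 9.60 and 9.74 in DMSO and 8.06, 8.59 and 8.21 in YW3-56. Its vehicle values were tight and every treated value lay well below them, a 2.67-fold fall (-1.41 ± 0.13, adjusted p = 4.0e-04 by limma). H3C10 read 7.52, 7.61 and 7.79 against 6.60, 7.17 and 6.99 (-0.72 ± 0.14, limma adjusted p = 0.0092). H3C1 read 9.90, 9.88 and 10.13 against 9.13, 9.52 and 9.44 (-0.61 ± 0.12, limma adjusted p = 0.0087). In both, YW3-56 replicate 1 was lowest and no treated value reached the vehicle range.

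H3C11 read 7.97, 8.09 and 8.38 in DMSO and 7.21, 7.80 and 7.63 in YW3-56 (-0.60 ± 0.16, limma adjusted p = 0.032). Its call was lost without DMSO replicate 2 (adjusted p = 0.0799) or 3 (0.0881) and without YW3-56 replicate 1 (0.0752) or 3 (0.0781). H3C3 was called at -0.40 ± 0.08. The call of H3C2 (-0.34 ± 0.10, limma adjusted p = 0.047) was lost without DMSO replicate 1 (0.0639), 2 (0.137) or 3 (0.0698), without YW3-56 replicate 1 (0.115) or 3 (0.101), and also after centring of each array (0.0666) or a second quantile normalization (0.0682). H3C8 and H3C7 were not called, at -0.21 and -0.16. In the test without shared variance 2 H3 genes passed, H3C12 and H3C3.

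H4 is the most conserved histone. H4C2 read 10.43, 10.25 and 10.77 in DMSO and 9.15, 9.44 and 9.58 in YW3-56, without overlap, and was 2.14-fold lower (-1.09 ± 0.15, limma adjusted p = 0.0019). H4C14 and H4C15 shared the values 13.44, 13.44 and 13.55 in DMSO and 12.91, 13.09 and 13.16 in YW3-56 (-0.43 ± 0.09, limma adjusted p = 0.011). A dimmer probe set that the annotation gives to both genes changed by -0.21 ± 0.21. H4C1 read 8.76, 8.76 and 9.18 against 8.20, 8.38 and 8.52 (-0.53 ± 0.13, limma adjusted p = 0.024), and its call was lost without YW3-56 replicate 1 (0.0849) or 2 (0.0708). In the test without shared variance H4C1 lost its call too (adjusted p = 0.129), and 3 H4 genes passed.

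H4C8 was the other gene with a difference above 0. It read 9.18, 8.81 and 8.96 in DMSO and 9.52, 8.86 and 9.0 in YW3-56, with overlapping groups (0.14 ± 0.17, limma adjusted p = 0.65). The H4 genes not called lay between -0.38 for H4C5 and this value, among them H4C3, a bright gene, at -0.29 ± 0.12. With the replicate block H4C3 (limma adjusted p = 0.0472) and H4C13 (0.0446) were called lower. Without DMSO replicate 1 the calls of H4C4 (0.0094), H4C5 (0.0237), H4C6 (0.0428) and H4C7 (0.0489) were added. H4C16, the solitary H4 gene on chromosome 12, changed by -0.35 ± 0.12 (limma adjusted p = 0.085), and H4C9 changed by -0.12.

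H1 is the linker histone, and its median fell closest to 0 of the families. With dim genes left out only H1-2 and H1-4 remained of H1, and their median was -0.39, against -0.34 for H2B. H1-2, one of the forms that most cells express, read 11.49, 11.39 and 11.50 in DMSO and 10.70, 11.01 and 11.01 in YW3-56. Its treated values were separate from the vehicle values, and it was 1.46-fold lower (-0.55 ± 0.10, limma adjusted p = 0.0063). H1-4, the brightest H1 probe set, read 14.08, 14.13 and 14.04 against 13.83, 13.94 and 13.81. Its groups did not overlap either, but the change of -0.23 ± 0.07 missed the threshold (limma adjusted p = 0.064) and passed it with the replicate block (0.0439), a second quantile normalization (0.0378), the dim genes left out (0.0399), a trended and robust prior (0.0022) or array weights (0.0127).

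H1-5 read 6.01, 6.33 and 6.22 in DMSO and 5.94, 6.03 and 6.17 in YW3-56 (-0.14 ± 0.10). H1-3 read 5.95, 6.23 and 6.31 against 5.99, 6.13 and 5.96 (-0.14 ± 0.11), so the groups of both overlapped. H1-6, a testis form, changed by -0.13 and H1-1 by -0.07. The means of H1-1, H1-3, H1-5 and H1-6 lay from the 11.1 to the 15.8 percentile of all genes, where fewer genes of any kind were called.

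**Figure D3:**
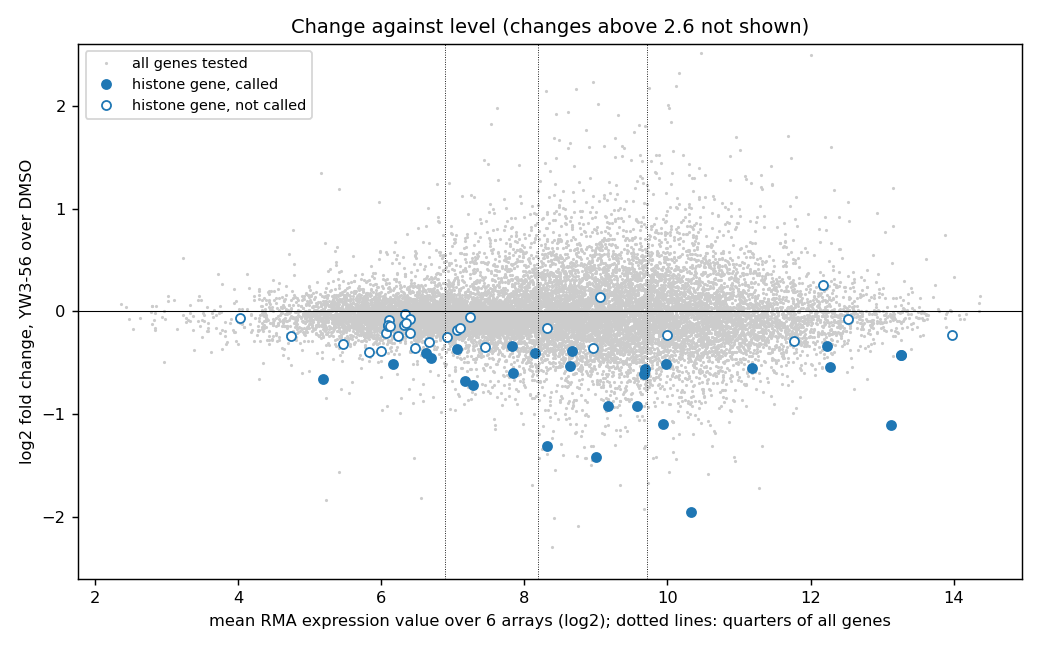
Log2 fold change (vertical axis) against the mean expression value over 6 arrays (horizontal axis, log2) for all 18417 genes in grey and the 58 histone genes in blue, filled where called. Dotted lines divide all genes into 4 equal groups by level, and the members below the lowest line were called in 4 of 22 cases.

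The share of called genes was lowest among the dimmest genes. Among the lowest 25% of all genes by mean value, 4 of 22 histone genes were called lower, against 2.15% of all genes there. In the groups of equal size above it 6 of 11, 8 of 11 and 9 of 14 were called, against 6.41%, 17.6% and 19.9% of all genes. The median change was -0.25 for the 33 members under the median level and -0.52 for the 25 above it, while it was -0.05 for all genes on both sides. The part of a low level in the uncalled members was not tested.

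The treated arrays did not contribute alike. Among the 27 called members, YW3-56 replicate 1 held the lowest of the treated values in 25. The median difference of the 58 members from their DMSO mean was -0.50 in YW3-56 replicate 1, -0.23 in replicate 2 and -0.30 in replicate 3, against -0.08, -0.05 and 0.10 in the DMSO arrays. Without YW3-56 replicate 1 the median log2 fold change was -0.28 and 18 members were called. The count was also 18 without YW3-56 replicate 3. Of the 27 calls, 17 held whichever array was left out. The difference of all 27 stayed below 0 in every alternative run that held the gene.

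Genes for the same protein did not share the same change. RefSeq's lists of synonyms group H2AC11, H2AC13, H2AC15, H2AC16 and H2AC17 as genes of 1 H2A protein, and their log2 fold changes ran from -1.95 for H2AC15 to -0.35 for H2AC17. For the pair H2AC4 and H2AC8 they were -1.31 and -0.06, with H2AC8 near the floor. The 8 H3 genes ran from -1.41 to -0.16, and the 12 H4 genes grouped with H4C1 from -1.09 to 0.14. H2BC4, H2BC6, H2BC7, H2BC8 and H2BC10 lay closer together, from -0.46 to -0.18. The differences between copies were not tested, and probes shared between near-identical copies can mix their signals.

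A further 20 histone probe sets carried several symbols and covered 14 symbols that had no probe set of their own. They held 17 distinct sets of values, and all 17 differences were below 0, from -0.79 to -0.13 with a median of -0.27. Over the 18417 genes tested, 11432 differences were below 0. In a fit over all 33297 probe sets, 7 of the 17 were called lower and 0 higher, against 6.5% of all probe sets called lower. Among them were those of H4C11 and H4C12, read by 2 probe sets, which fell by 0.79 (limma adjusted p = 0.017) and by 0.70 (0.014) on the log2 scale. One for H3C10 and H2AC13 fell by 0.78 (0.019), close to the -0.72 and -0.92 of the genes' own probe sets. The bright probe sets for H3C13, H3C14 and H3C15 changed by -0.26 to -0.28. In this wider fit 19 of the 58 members were called lower.

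The position of the genes was set beside their change. Over all positions, 27 of 58 members and 11.5% of all genes were called lower, and differences between places were not tested. On chromosome 6 the members fell into groups separated by more than 250 kb. In the group that ends the region, from H2BC13 to H2BC17, 9 of 13 were called lower, with a median of -0.60. In the largest group, from H1-1 to H4C8, 12 of 29 were called and the median was -0.30, and in the group from H2BC11 to H2AC12 it was 3 of 5. On chromosome 1, the group around H2AC20 and H4C14 had 3 of 6 called, and the pair H2AC25 and H2BC26 had 0. The testis pair H2AC1 and H2BC1 at the edge of the region was not called.

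Other genes between the histone genes on chromosome 6 were more often higher than lower. Of 21 such genes, 9 were higher and 2 lower, with a median log2 fold change of 0.25, against 9.84% of all genes called higher. The count of higher genes was 5 without shared variance, and from 6 without YW3-56 replicate 2 to 11 without DMSO replicate 1. BTN3A3, a butyrophilin, was higher by 0.94 ± 0.18 (limma adjusted p = 0.0072), the zinc finger genes ZNF184 by 0.80 ± 0.10 and ZNF322 by 0.70 ± 0.07, and TRIM38, a ubiquitin ligase, by 0.68 ± 0.13. ABT1, an activator of basal transcription, was lower by -0.43 ± 0.07, and HMGN4, a nucleosome-binding protein, by -0.27 ± 0.07. The call of HMGN4 was lost in each fit that left out 1 array except the one without DMSO replicate 3, with limma adjusted p from 0.0511 without DMSO replicate 1 to 0.106 without YW3-56 replicate 3, and after centring (0.0744). Without shared variance the calls of BTN3A3 (0.0807), TRIM38 (0.0657), BTN3A1 (0.137) and PRSS16 (0.0886) were lost. With array weights BTN3A1 lost its call as well (0.0634). The calls of BTN2A2, BTN3A1 and PRSS16 were lost when some single arrays were left out, with adjusted p of up to 0.129, 0.107 and 0.0723. With the replicate block BTN3A2 (0.0174) and BTN2A3P (0.0300) were called higher too. These genes were chosen for their place and named after their values were seen.

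**Figure D4:**
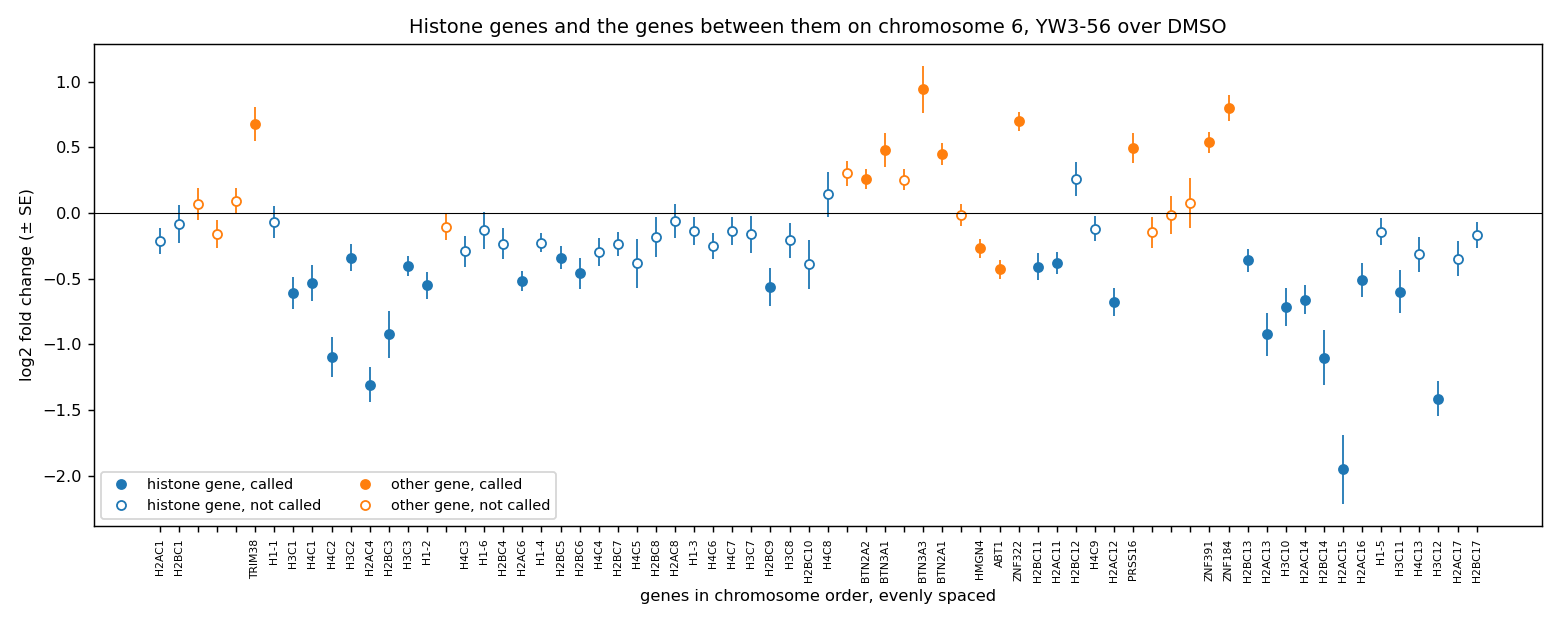
Log2 fold change (bars are SE, 3 arrays a group) of the histone genes (blue) and of the other genes between them (orange) on chromosome 6, in chromosome order and evenly spaced; filled points passed an adjusted p of 0.05 and uncalled other genes carry no name. The histone genes lie mostly below 0, and 9 of the 21 other genes were called higher.

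Head-to-head H2A and H2B genes start from opposite strands of a shared promoter. In 9 such pairs both genes had a matched promoter, with starts 215 to 248 bases apart. Pairs without a match for both genes were not counted. H2BC12 and H2AC12, which adjoin on chromosome 6 and changed by 0.26 and -0.68, were not among the 9. Over all members 27 of 58 were called lower, against 11.5% of all genes, and the pairs were not tested against the other members. In 3 of the 9 pairs both genes were called lower, in 2 pairs 1 gene was, and in 4 pairs neither. The pairs with both were H2BC11 with H2AC11 (-0.41 and -0.38), H2BC13 with H2AC13 (-0.36 and -0.92) and H2AC14 with H2BC14 (-0.66 and -1.10). H2AC6 fell beside H2BC4, and H2AC20 beside H2BC21. H2BC4 and H2BC21 are among the genes with a RefSeq span of over 1 kb, as is H2BC5, which was called lower. The part of the span was not tested.

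Some genes that act at the histone locus body were higher. Of 11 measured genes of histone gene transcription, 4 were higher and 0 lower, against 9.84% of all genes called higher, with a median of 0.02. NPAT, the coactivator that starts histone transcription, read 10.55, 10.47 and 10.47 in DMSO and 10.89, 10.95 and 10.95 in YW3-56 (0.44 ± 0.07, limma adjusted p = 0.0033). CASP8AP2, also called FLASH, which links NPAT to the processing machinery, read 9.11, 8.76 and 8.75 against 9.40, 9.52 and 9.49 (0.60 ± 0.11, limma adjusted p = 0.0061). HINFP, the factor of the H4 promoter, read 9.37, 9.34 and 9.48 against 9.89, 9.87 and 9.91 (0.49 ± 0.07, limma adjusted p = 0.0023). None of these 3 overlapped between groups, and the transcriptional regulator GON4L was higher by 0.41 ± 0.07. Each of these 4 calls held whichever array was left out, and that of CASP8AP2 was lost without shared variance (adjusted p = 0.0537). At an unadjusted p under 0.05, limma gave 0 lower genes in this list, against 3327 of all 18417 genes. CDK2 (-0.06), CCNE1 (-0.21), CCNE2 (-0.10) and E2F1 (0.02), which drive entry into S phase, were not called.

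The genes of histone mRNA processing went both ways. Of 15 measured, 1 was higher and 4 lower, against 9.84% and 11.5% of all genes, and the lower count was 2 without DMSO replicate 2 or YW3-56 replicate 3 and 1 without YW3-56 replicate 2. ZNF473, a zinc finger partner of the U7 particle, read 10.08, 10.01 and 10.05 in DMSO and 10.79, 10.66 and 10.83 in YW3-56 (0.71 ± 0.08, adjusted p = 6.4e-04 by limma). LSM10, a subunit of the ring of the U7 particle, was lower by -0.59 ± 0.08, whereas its partner LSM11 changed by 0.11 ± 0.08 and was not called. CSTF2, CPSF2 and CPSF3, of the cleavage machinery, were lower by -0.49 ± 0.11, -0.33 ± 0.07 and -0.27 ± 0.07. The call of CPSF2 was lost without YW3-56 replicate 2 (adjusted p = 0.0653). That of CSTF2 was lost without DMSO replicate 2 (0.0600), YW3-56 replicate 2 (0.0671) or YW3-56 replicate 3 (0.0682). That of CPSF3 was lost without DMSO replicate 2 (0.0776) or 3 (0.0591) or YW3-56 replicate 2 (0.0906) or 3 (0.0980). SLBP, which binds the stem-loop, read 10.88, 10.79 and 10.80 against 10.76, 10.77 and 10.74 and was not called (-0.06 ± 0.07, limma adjusted p = 0.62). Of the genes of histone mRNA decay, 3 of 14 were higher and 3 lower. TUT7, which adds uridines to histone mRNA, was higher by 0.50 ± 0.08, and DCP1A and DCP2, of the decapping complex, by 0.38 ± 0.10 and 0.34 ± 0.07. ATR, the kinase of replication stress, was lower by -0.60 ± 0.10, XRN2 by -0.43 ± 0.07 and EXOSC10 by -0.29 ± 0.07. The call of DCP1A was lost without any 1 array other than DMSO replicate 1, with adjusted p from 0.0553 without DMSO replicate 3 to 0.0878 without YW3-56 replicate 3, and that of DCP2 without YW3-56 replicate 3 (0.0634). That of EXOSC10 was lost without DMSO replicate 2 (0.0574) or YW3-56 replicate 1 (0.0585), 2 (0.0569) or 3 (0.0664). With the replicate block XRN1 was called higher too (limma adjusted p = 0.0391).

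**Figure D5:**
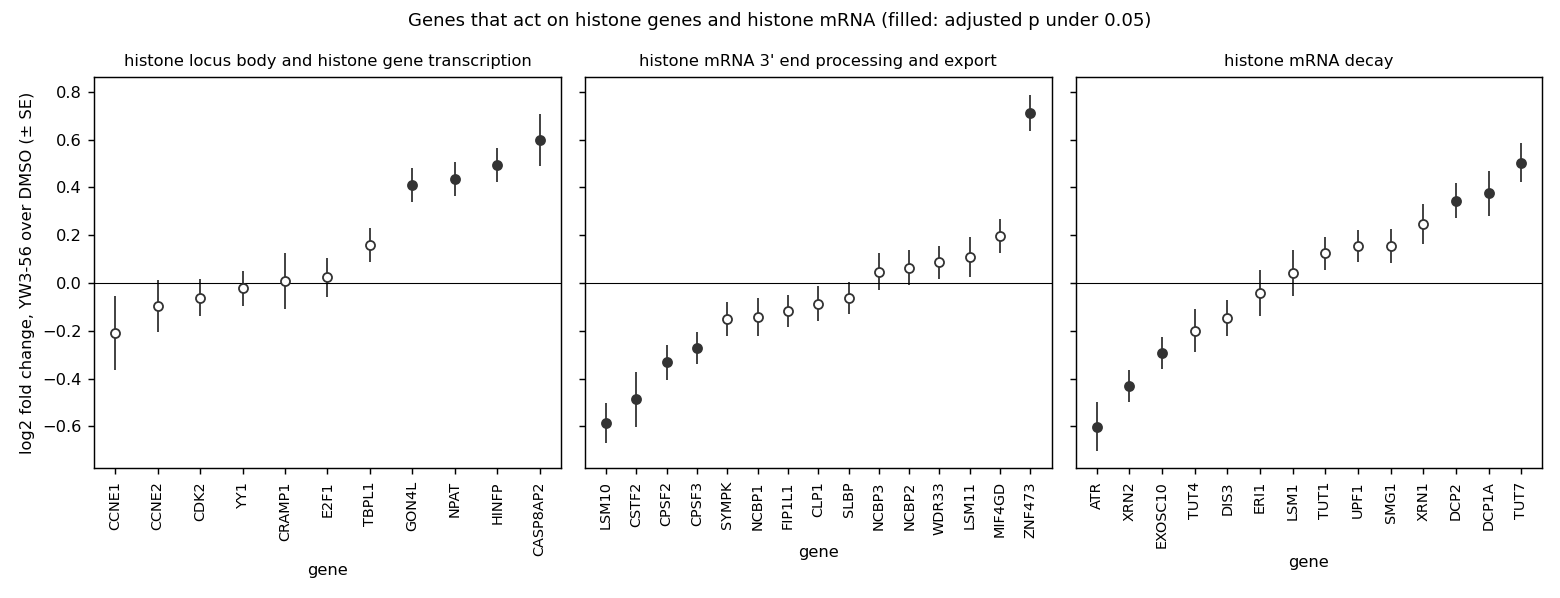
Log2 fold change (vertical axis, YW3-56 over DMSO; bars are SE, 3 arrays a group) of genes that act on histone genes and their mRNA, in 3 lists; filled points passed an adjusted p of 0.05. In the first list 4 of 11 genes were called higher and 0 lower, and SLBP in the second list lies near 0.

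A list of replication-independent and solitary histone genes was read beside the members, although it also holds H2AX, whose mRNA can end in a stem-loop, and germline genes. The difference between this list and the members was not tested. Of its 13 measured genes, 1 was lower and 0 higher, against 11.5% of all genes called lower, with a median of -0.16. H2AX read 10.98, 11.08 and 10.92 in DMSO and 10.88, 11.09 and 11.04 in YW3-56 (0.01 ± 0.09). H2AZ1, the variant at promoters, changed by 0.02 ± 0.10, and H3-3B, which encodes the replacement H3, by -0.27 ± 0.09 (limma adjusted p = 0.066). The gene called was MACROH2A1, at -0.22 ± 0.07, and its call was lost in each of the 6 fits that left out 1 array, with adjusted p from 0.0553 without DMSO replicate 1 to 0.148 without YW3-56 replicate 2. At an unadjusted p under 0.05 by limma, 0 of the 13 were higher, against 2490 of all 18417 genes. With the replicate block H3-5 was called lower as well (limma adjusted p = 0.0470).

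The chaperones that carry new histones to DNA were lower in 8 of 22 genes and higher in 1, against 11.5% and 9.84% of all genes. The lower count was 6 without DMSO replicate 1, 5 without DMSO replicate 2 or 3, 4 without YW3-56 replicate 1 or 2, 3 without YW3-56 replicate 3 and 5 after centring. The largest falls were those of IPO4, which imports H3 and H4 (-0.62 ± 0.07), SUPT16H, a FACT subunit (-0.60 ± 0.07), and HJURP, the chaperone of the centromeric H3 (-0.53 ± 0.08). ASF1A, an H3 and H4 chaperone, was higher by 0.53 ± 0.07, while ASF1B changed by 0.07. Of 37 genes of DNA replication and S phase, 15 were lower and 0 higher, against 11.5% of all genes called lower, with a median of -0.19. With 1 array left out this lower count ran from 10 without YW3-56 replicate 2 or 3 to 14 without DMSO replicate 3. UNG, a repair glycosylase, changed by -0.87 ± 0.12, UHRF1 by -0.60 ± 0.08, FEN1 by -0.58 ± 0.08, RRM2 by -0.58 ± 0.11 and PCNA, the sliding clamp, by -0.47 ± 0.08. At an unadjusted p under 0.05, 2 of the 37 were higher by limma, against 2490 of all 18417 genes. Among the uncalled genes that prepare replication origins, CDC6 differed by 0.33 ± 0.12, ORC1 by 0.29 ± 0.11 and CDT1 by 0.20 ± 0.10. With the replicate block CDC6 was called higher (limma adjusted p = 0.0329), and all 3 were called higher without DMSO replicate 1 (0.0048, 0.0286 and 0.0226). The call of RRM2 was lost without shared variance (0.0657). The part of S-phase content in the histone falls was not tested. By limma 0 of the 5 genes for peptidylarginine deiminases were called. At an unadjusted p under 0.05 by limma, 0 of them were lower and 0 higher, against 3327 and 2490 of all 18417 genes. PADI4 changed by -0.02 ± 0.07 from a dim 6.55 in DMSO.

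Over the whole series, limma called 2121 genes lower and 1812 higher. Across genes, arrays of the same group correlated at 0.990 to 0.997 and arrays of different groups at 0.980 to 0.985. Markers known for the cell line were high, with VIM, CD44, AXL, CAV1, MSN, FOSL1 and TGFBI at the 83.0 to 99.7 percentile. ESR1, PGR and CDH1 were dim, at the 22.4, 8.88 and 14.1 percentile, whereas KRT8, ERBB2 and FOXA1, listed as low, were not, at the 94.7, 65.5 and 62.4 percentile.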

How the data were processed

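The authors deposited log2 values of 33297 probe sets for 6 arrays, made with RMA in affy per the submitters' processing notes (versions not given in the sources used). Probe sets with 1 symbol in the platform annotation were kept (19460), and the brightest by the mean of 6 arrays stood for each of 18417 genes. YW3-56 was compared with DMSO by limma 3.58.1 in R 4.3.3 (lmFit and eBayes, group as the only term, all 6 arrays, no filter, two-sided). Benjamini-Hochberg adjustment ran over the full set of genes, with calls at an adjusted p under 0.05. Differences of log2 means are given with SE. The script was tested on simulated data.

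The members and lists were chosen with earlier results of these data known. In each family the up to 4 members with the largest change, called first, got every array value, and of each other list the up to 4 largest called genes were named with a few fixed ones. H2BC12, H4C8 and further genes were named after their values were seen. Of 26 listed other histone genes 13 were tested, and RNU7-1 was not analysed here. Deviations of arrays with the same replicate number correlated at 0.54, 0.37 and 0.10, each above 0.1, so a fit with the number as a block was set beside the results. Among arrays of unlike number, DMSO replicate 3 and treated replicate 2 correlated at 0.42, above the same-number values 0.37 and 0.10. The other unlike pairs lay from -0.55 to -0.05. The correlations thus do not clearly show that the arrays pair by number, and calls made only with the block depend on that pairing. Names, neighbours and promoters come from RefSeq (GRCh38.p14), and the labels do not name the build of the probe annotation. Alternatives were the block, each array left out, centring, a second quantile normalization, dim genes (the lowest 25%) left out, the mean of probe sets, a trended and robust prior, no shared variance and array weights. A fit over all probe sets and the single counting of H4C14 and H4C15 were added after the data were seen.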

Additional observations from a re-analysis of the deposited data

How the results depend on the processing

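The count of 27 lower histone genes ran from 18 to 32 with 1 array left out, and was 32 with the replicate block, 24 with dim genes left out and 33 with array weights. Without shared variance it was 12, with 0 in H2B and 2 in H3. The count of higher members was 1 with the replicate block and 1 with array weights. In H1 the lower count of 1 became 2 with the replicate block, 2 after a second quantile normalization, 2 with dim genes left out, 2 with a trended and robust prior and 3 with array weights, and its median was -0.39 with dim genes left out. With 1 array left out, the lower count ran from 2 to 9 in H2B and from 3 to 8 in H4. Over all genes with 1 array left out, calls ran from 2364 to 4689, higher calls from 1158 to 2084 and lower calls from 1206 to 2605. The lowest lower counts were 1206 without YW3-56 replicate 3 and 1309 without YW3-56 replicate 2. The replicate block called 4776 genes, 2115 higher and 2661 lower. Array weights called 6079 genes, 3432 of them lower. Centring turned the split of calls to 1899 higher and 1742 lower. The cause of these shifts was not tested, apart from the fewer arrays or genes of some fits. No difference of a called histone gene changed sign, and 12 of the 27 were called in every alternative over genes that held them. H2AC14, which is among the 12, was too dim for the fit with dim genes left out. The median over members stayed between -0.28 and -0.42. The number of arrays and dim probe sets limit the precision.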
